A study of Mus musculus with 16 samples.

Results

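Of 94635 chromatin regions merged from the peaks of 12 ATAC-seq libraries of mouse CD8+ T cells, 4504 (4.76%) had a peak in all 4 in vitro libraries and in none of the 8 libraries from tumours. They are called lost regions here. They were 11.4% of the 39425 regions with a peak in all 4 in vitro libraries, of which 20064 were open in all 12 libraries. Another 164 regions ran the other way, with a peak in all 8 tumour libraries and in none in vitro. The regions were chosen by the presence and absence of peaks in these same 12 libraries, so the in vitro against tumour difference is given only as a description with no test. A region without a listed peak can still carry signal below the peak caller's threshold.

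ATAC-seq uses the Tn5 transposase to cut DNA where nucleosomes leave it exposed. In lymphocytes most gene starts that carry CpG islands are open in every state, whereas distal enhancers, short elements bound by AP-1, RUNX, ETS, TCF and other factors, open and close with activation and differentiation. AP-1 and NFAT factors open many such elements within days of T cell receptor stimulation, and T cells that stay in tumours are known for a distinct set of open enhancers.

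The cells in every group came from Pmel-LC3-GFP-RFP mice, in which CD8+ T cells recognize a melanocyte antigen and a tagged LC3 protein reports autophagosomes. Before any library was made, all had been activated over 3 days by CD3 and CD28 antibodies (2 µg/ml each) with IL2 at 100 IU/ml and had received carbon monoxide (CO) for 24 h, so a group without CO was not analysed here. The tumour groups were LC3-GFP pos and LC3-GFP neg cells given to C57BL/6 mice bearing B16-F10 melanoma of 12 days, and Vβ13+CD8+ cells were recovered 15 days afterwards from the tumours of 4 mice per group, 1 library a mouse. The in vitro groups were the sorted LC3-GFP pos and LC3-GFP neg cells themselves, 2 ATAC libraries each, and RNA was measured in 2 pos and 2 neg libraries of cells of that kind. Nothing in the labels ties the 2 replicates of an in vitro or RNA group to different mice or dishes, so p-values reflect only how these libraries vary, and that variation may be technical. The labels name no step that removed host T cells, and they give neither the share of transferred cells in the Vβ13+CD8+ sort nor the age of the mice.

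The tumour lists were shorter than the in vitro lists, except that of in vivo LC3-GFP neg replicate 2. They held 27406 to 37477 peaks in the pos and 33704 to 55171 in the neg libraries. In vitro there were 63761 and 53869 peaks in the pos and 56476 and 49634 in the neg libraries. Read depth is unknown from such lists, and the part that list length plays in the number of lost regions was not tested. The library of in vivo LC3-GFP neg replicate 2 stood apart, with 55171 peaks and 26.6% of its regions found in no other library, against 0.491% to 2.80% in the other 3 of its group. Without it 6950 regions were lost, and with the 25000 best peaks of each library 1130 were. All 12 CD8 T cell marker genes with a placed start had a peak there in every library, except Cd6 in that same replicate. In bulk samples, fewer cells of a type and less signal per cell cannot be told apart.

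Where a lost region covered a whole promoter window, its sequence could be read. The 300-base windows that RefSeq gives for GRCm38.p6, the assembly named by mm10, run from 250 bases before to 50 bases after a gene start, and 99 of 32817 lay inside a lost region. Windows of 6 genes are shown 5′ to 3′ on the strand of the gene because the motif counts turn on windows of this kind. Capitals mark AP-1 (TGANTCA), RUNX (TGTGGT), PU.1 type ETS (GGAAGT), EBF and octamer (ATGCAAAT) matches on either strand. Etv3l (chr3:87549807-87550106, plus strand), an ETS family gene, and Gramd2 (chr9:59707514-59707813, plus strand) were named by rank. Odaph (chr5:91987223-91987522, plus strand), Il5ra (chr6:106748988-106749287, minus strand), which encodes a receptor chain for interleukin 5, Hdac9 (chr12:34528840-34529139, minus strand, an alternative start), which encodes a histone deacetylase, and Il21 (chr3:37232587-37232886, minus strand), which encodes a T cell cytokine, were chosen after their values were seen.
Etv3l: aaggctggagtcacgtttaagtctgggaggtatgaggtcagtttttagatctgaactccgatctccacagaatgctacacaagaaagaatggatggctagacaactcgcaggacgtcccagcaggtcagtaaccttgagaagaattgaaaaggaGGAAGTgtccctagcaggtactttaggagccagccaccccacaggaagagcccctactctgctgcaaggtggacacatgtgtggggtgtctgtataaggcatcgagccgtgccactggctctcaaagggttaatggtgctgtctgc
Gramd2: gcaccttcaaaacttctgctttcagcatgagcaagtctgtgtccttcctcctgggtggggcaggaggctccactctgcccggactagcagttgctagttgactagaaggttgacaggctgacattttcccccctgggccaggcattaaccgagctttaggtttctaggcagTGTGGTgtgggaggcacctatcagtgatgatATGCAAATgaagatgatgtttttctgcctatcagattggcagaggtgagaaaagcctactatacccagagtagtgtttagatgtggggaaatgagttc
Odaph: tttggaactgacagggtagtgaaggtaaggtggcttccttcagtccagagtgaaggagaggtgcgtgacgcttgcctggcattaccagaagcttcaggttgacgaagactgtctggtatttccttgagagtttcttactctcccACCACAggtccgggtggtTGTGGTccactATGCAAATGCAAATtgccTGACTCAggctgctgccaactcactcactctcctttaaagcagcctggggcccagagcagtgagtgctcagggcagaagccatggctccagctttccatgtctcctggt
Il5ra: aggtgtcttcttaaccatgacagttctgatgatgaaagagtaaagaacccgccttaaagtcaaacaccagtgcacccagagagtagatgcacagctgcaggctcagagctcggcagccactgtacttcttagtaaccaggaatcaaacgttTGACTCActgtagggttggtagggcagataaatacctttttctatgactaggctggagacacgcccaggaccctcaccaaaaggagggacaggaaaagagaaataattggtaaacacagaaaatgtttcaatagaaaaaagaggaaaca
Hdac9: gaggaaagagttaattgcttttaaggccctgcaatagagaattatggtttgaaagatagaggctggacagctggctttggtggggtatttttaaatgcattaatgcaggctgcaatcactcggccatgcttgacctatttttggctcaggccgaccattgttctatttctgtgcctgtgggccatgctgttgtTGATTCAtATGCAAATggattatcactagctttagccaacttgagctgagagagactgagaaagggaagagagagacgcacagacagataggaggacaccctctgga
Il21: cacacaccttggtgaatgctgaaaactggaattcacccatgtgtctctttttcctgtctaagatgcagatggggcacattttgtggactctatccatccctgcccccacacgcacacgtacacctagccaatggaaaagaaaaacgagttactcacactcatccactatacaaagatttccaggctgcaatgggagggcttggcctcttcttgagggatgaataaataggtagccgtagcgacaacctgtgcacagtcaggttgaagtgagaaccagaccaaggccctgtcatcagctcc

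The Odaph window held AP-1, RUNX and octamer letters, the Hdac9 window an AP-1 match and an octamer, and the Il21 window none of the 5 motifs. Across the 99 lost windows, AP-1 letters were in 19 (19.2%), against 4.49% of the 12150 windows inside regions open in all 12 libraries and 7.81% of all 32817. RUNX letters were in 19.2% of lost windows, 12.2% of windows open in all 12 and 16.8% of all, and the octamer in 5.05%, 1.30% and 1.74%. The median number of CpG was 7 in lost windows, 22 in windows open in all 12 and 7 in all windows, and 41 of the 99 lost windows held at most 5. Their median GC content was 55.7%, against 62.0% and 52.7%. The windows are few and some overlap, so these shares describe the lost windows only. Without in vivo LC3-GFP neg replicate 2, AP-1 letters were in 31 of 257 lost windows (12.1%), and with the 25000 best peaks of each library in 8 of 58 (13.8%).

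Letters of motifs common in CpG-rich promoters were less frequent in the lost windows than in windows open in all 12 libraries. The SP/KLF box (GGGCGG) was in 34.3%, against 67.6% of windows open in all 12 and 35.6% of all windows, and the ETS site CCGGAA in 9.09%, against 30.2% and 14.9%. PU.1 type ETS letters were in 17.2%, 29.0% and 23.8%, ATF/CREB letters (TGACGT) in 3.03%, 12.7% and 7.51%, and the E-box CACGTG in 5.05%, 10.6% and 7.15%. NFAT letters (GGAAAA), whose first bases are shared with both ETS motifs, were in 13.1%, 19.4% and 23.3%, and the NF-Y box (CCAAT) in 33.3%, 37.7% and 37.4%. The other motifs searched were TCF/LEF (CTTTGA), at 14.1%, 11.2% and 16%, and IRF, at 2.02%, 2.98% and 3.43%. STAT (TTCNNNGAA) was at 6.06%, 6.57% and 8.29%, the TATA box (letters TATAAA) at 8.08%, 5.88% and 13.6%, and EBF at 2.02%, 0.889% and 0.905%. A match of letters is not evidence of binding.

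Lost regions lay mostly away from gene starts. Of the 4504, 128 (2.84%) were within 1 kb of the start of a protein-coding gene (95% Wilson interval 2.40% to 3.37%, counting error only), 2780 (61.7%) lay in a gene body or its 2 kb upstream, and 1596 (35.4%) between genes. Of regions open in all 12 libraries, 51.2% were at a gene start, 26.5% in gene bodies and 22.3% between genes. The median lost region was 1006 bp long and 31.9 kb from the nearest gene start, against 1768 bp and 1.30 kb for regions open in all 12. The nearest tumour peak was at a median distance of 5.94 kb, and 121 lost regions had one within 500 bp. Without in vivo LC3-GFP neg replicate 2 the share at gene starts was 4.06%, and with the 25000 best peaks of each library 4.16%. The number of lost regions per chromosome ran from 8.35% of the in vitro regions on chromosome 17 to 14.1% on chromosome 18 among the autosomes, and was 9.20% on X.

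Lost regions were also weaker in vitro than those that stayed open. Peaks were ranked within each library by the authors' −log10 q, so that 0% is the strongest and 100% the weakest. The median rank of lost peaks was 50.9% and 59.4% in the pos and 54.5% and 63.1% in the neg libraries, whereas regions open in all 12 had medians of 19.4% and 22.1% in the pos and 21.3% and 23.5% in the neg libraries. When the 39425 in vitro regions were split by mean rank into 5 groups of equal size, 0.495% of the strongest group were lost, followed by 4.54%, 11%, 17.4% and, in the weakest group, 23.6%. In all 5 groups the share was lowest at gene starts and highest in gene bodies. None of the 6158 gene-start regions of the strongest group was lost, against 2.71% of gene body regions and 1.78% of regions between genes, and in the weakest group the shares were 12.1%, 25.8% and 22.0%.

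**Figure D1:**
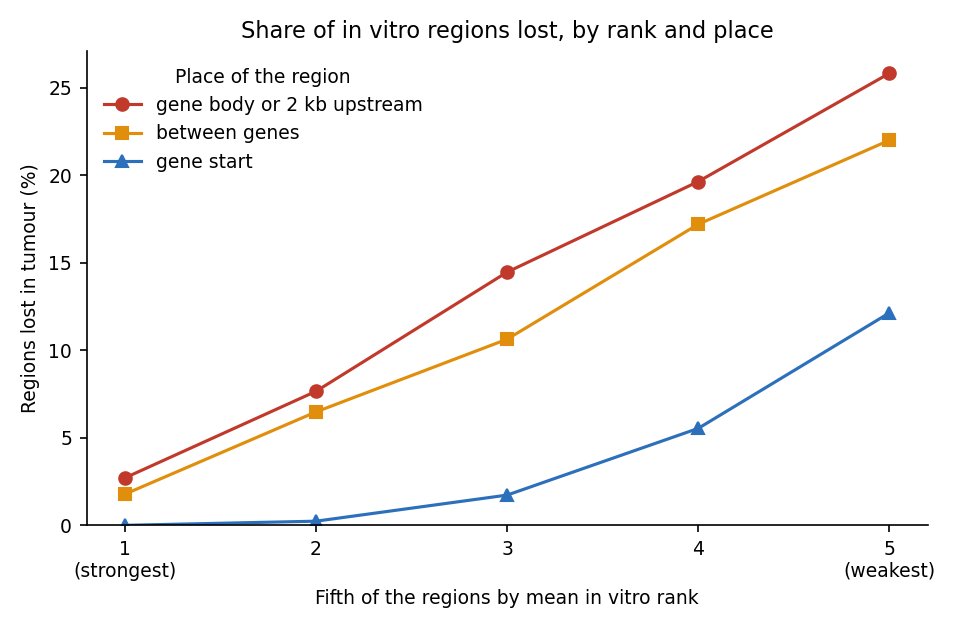
Share of regions with a peak in all 4 in vitro libraries that were lost in tumour (y axis, %), in 5 equal groups of the mean in vitro rank (x axis, strongest to weakest) and by place (lines). The share was highest in the weakest group at every place and reached 12.1% at gene starts, against 25.8% in gene bodies.

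**Figure D2:**
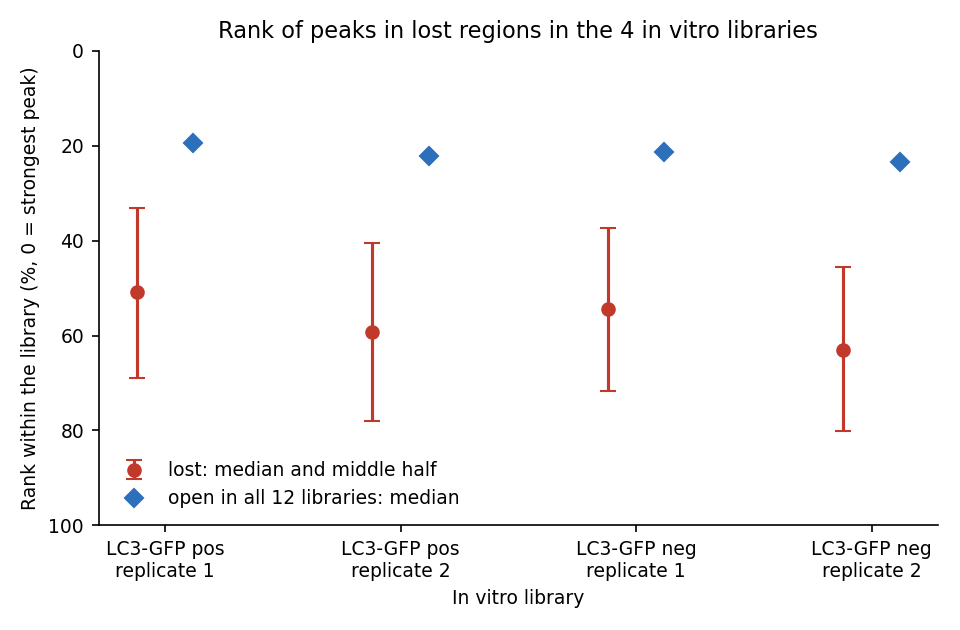
Rank of peaks within each in vitro library (y axis, %, 0 the strongest). Red points are medians over peaks in lost regions with bars from the 25% to the 75% point, and blue diamonds are medians over regions open in all 12 libraries. The lost medians lie between 50.9% and 63.1%, all weaker than the medians of 19.4% to 23.5% for regions open in all 12.

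Only 63 lost regions ranked within the best 25% of peaks in each of the 4 in vitro libraries, and 2389 (53%) fell below 75% in at least 1. The best ranked was in Cdon (chr9:35483275-35484624), which encodes a cell surface co-receptor of Hedgehog signalling. Its enrichment over local background, a fold given by the authors' peak caller like all folds and pileups of peaks here and comparable only within a library, was 8.37 and 8.83 in the pos and 8.21 and 9.92 in the neg libraries. It stood among the strongest 3.85% of peaks in each in vitro library, with 87 to 118 fragments or reads piled up at the summit. Cdon RNA was 28.8 and 33.0 CPM (counts scaled by library size) in the pos and 35.5 and 35.5 CPM in the neg libraries and was not called between them (log2 change -0.20, edgeR adjusted p = 0.107).

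The next gene body regions by rank lay in Ift80 (chr3:68904782-68906404), which encodes an intraflagellar transport protein, and Lpp (chr16:24658644-24659956), which encodes a LIM domain protein of cell adhesions. Folds at Ift80 were 7.43 and 8.06 in the pos and 8.82 and 10.3 in the neg libraries, and those at Lpp 7.93 and 10.1 in the pos and 9.20 and 10.3 in the neg libraries. Nampt (chr12:32847622-32848756), the rate-limiting enzyme of NAD salvage, had folds of 7.25 and 8.39 in the pos and 7.76 and 8.34 in the neg libraries. Cd86 (chr16:36571345-36572757), which encodes a ligand of the costimulatory receptor CD28, had 8.26 and 7.98 in the pos and 9.84 and 9.77 in the neg libraries. In each of these 4 genes the region was a strong in vitro peak in both populations. Sox5 (a transcription factor gene), Dthd1, Mrps28 (a mitochondrial ribosomal protein gene), Lrrc72 and Mtmr3 (a phosphoinositide phosphatase gene) completed the 10 best ranked, with worst ranks of 13.5% to 17.2%.

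Between genes, the 5 best ranked lost regions, chosen after their values were seen, included elements near genes of cytokine and costimulatory signalling. One was 11 kb from Jak1 (chr4:101276253-101277557), the kinase of many cytokine receptors, with folds of 6.25 and 7.84 in the pos and 7.54 and 8.20 in the neg libraries. Another was 31.3 kb from Cd28 (chr1:60804654-60806182), with 6.25 and 7.57 in the pos and 8.32 and 8.57 in the neg libraries. A region 75.4 kb from the AP-1 gene Jun (chr4:95127670-95128810) had folds of 8.24 and 10.2 in the pos and 9.06 and 9.25 in the neg libraries. The other two were 111 kb from Pik3r1, which encodes the regulatory subunit of PI3 kinase, and 34.4 kb from Prag1. The nearest gene need not be the one that a distal region acts on.

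At gene starts the best ranked lost region was that of Etv3l (chr3:87549382-87550560), whose promoter window is printed above, with folds of 5.84 and 6.73 in the pos and 7.82 and 6.90 in the neg libraries. The Gramd2 region (chr9:59706444-59708172) had 5.83 and 7.47 in the pos and 5.86 and 7.73 in the neg libraries. Colca2, Tmem125, Fgfbp1 (a binding protein of fibroblast growth factors) and Atxn2 (an RNA-binding protein) followed with Vldlr, a lipoprotein receptor gene, Cyp11a1, whose product starts steroid synthesis, the cytokine gene Il24 and Jcad. The worst rank of these 10 ran from 23.8% to 46.4%, so the gene starts lost were weaker than the best distal regions. Of the 125 genes with a lost region at a start, 19 had another start region open in all 12 libraries.

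Il21 had a pair of lost regions at its start. The one holding the printed window (chr3:37232487-37233630) had folds of 3.19 and 3.20 in the pos and 2.99 and 4.22 in the neg libraries, and the other (chr3:37230758-37231770) had 3.28 and 3.37 in the pos and 3.58 and 3.45 in the neg libraries. At Il5ra (chr6:106748912-106750733) folds were 4.00 and 4.58 in the pos and 4.80 and 4.70 in the neg libraries. The Odaph region (chr5:91987090-91988027) had 4.81 and 5.32 in the pos and 5.77 and 4.83 in the neg libraries. All 4 regions were of middle to low rank, with worst ranks of 53.7% to 80.1%.

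Genes with a lost region were long. Of the 4504 lost regions, 1968 (43.7%) had another within 50 kb, a share given with no comparison to other regions. A gene was counted with a region when the region overlapped its body, its 2 kb upstream or its start, and 2119 of the 16194 genes with any region (13.1%) had a lost one. Of these, 1598 had 1 and 168 had 3 or more. Their median length was 74.8 kb, against 22.7 kb for all genes with a region. The start of 72.8% of them was open in all 12 libraries, against 68.9% of all genes with a region, so most genes with a lost region kept an open promoter in tumours.

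Ebf1, a master transcription factor of the B cell lineage, held the most with all peaks used. Of its 22 regions with peaks in all 4 in vitro libraries, 19 were lost. A stretch of 321 kb that began upstream of the gene and reached into it held 18 lost regions, not all of them counted at Ebf1. No Ebf1 region was open in all 12 libraries, and the region at its start was among the 3 that were not lost. The best ranked of the 19 (chr11:44635927-44637589) had folds of 3.05 and 3.59 in the pos and 4.75 and 4.35 in the neg libraries. Over the 19, median ranks by −log10 q were 37.6% and 42.0% in the pos and 63.4% and 64.3% in the neg libraries. Both pos libraries thus ranked them higher than both neg libraries by this measure. Their median folds ran the other way, at 3.52 and 4.32 in the pos and 4.60 and 4.68 in the neg libraries. Over all peaks the median folds were 4.17 and 4.70 in the pos and 4.75 and 5.03 in the neg libraries. Without in vivo LC3-GFP neg replicate 2 the count was again 19 of 22, but with the 25000 best peaks of each library it was 2 of 3, below the 5 of 12 at Lpp.

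Foxp1, a forkhead factor that keeps T cells quiescent, came next with 10 lost of 40 in vitro regions, while 20 of its regions were open in all 12 libraries. Its best ranked lost region (chr6:99130673-99131689) had folds of 6.42 and 7.03 in the pos and 7.84 and 5.85 in the neg libraries. Lpp had 8 lost of 27 and Tmem108 had 8 of 11. Zbtb20, a zinc finger repressor gene, had 7 of 15, Maml2, a Notch coactivator gene, 7 of 26, and the sorting receptor gene Sorcs2 7 of 12. Sox5 had 6 of 16, Fggy, a carbohydrate kinase gene, 6 of 9, and Gnaq, a G protein subunit gene, 6 of 15. None of these 10 genes had a region gained in tumour, and 20 of all 2119 genes with a lost region had one. Of the 164 gained regions, 6 were at a gene start and 69 in a gene body or its 2 kb upstream. The share of all genes with a gained region was not set beside these counts, so they show neither overlap nor avoidance.

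**Figure D3:**
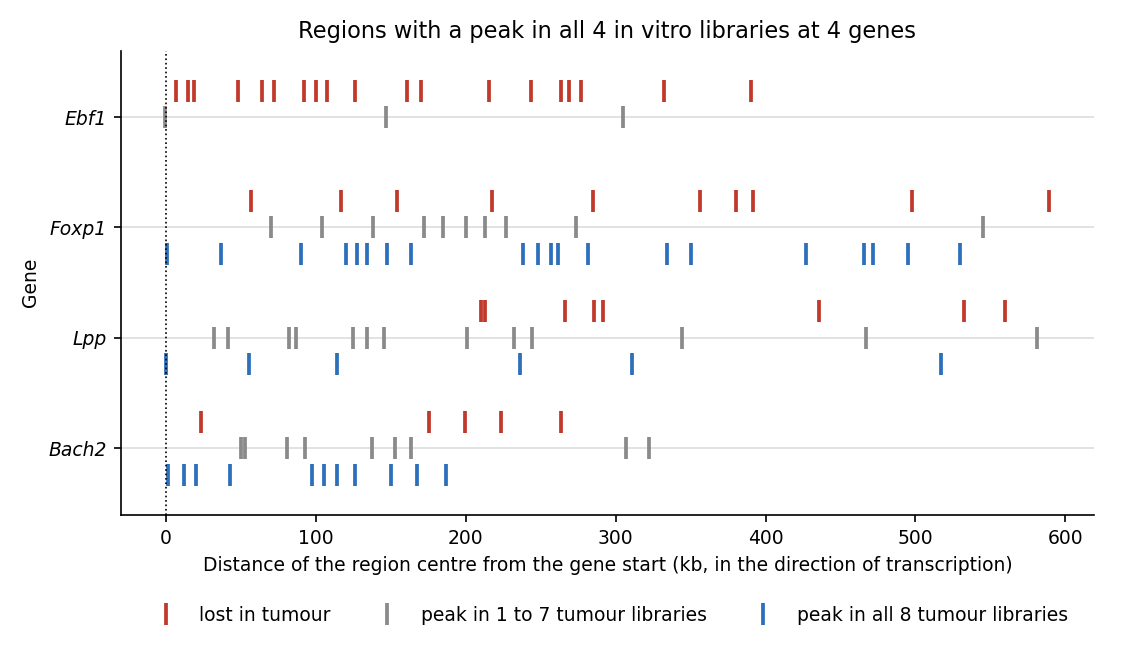
Regions with a peak in all 4 in vitro libraries at 4 genes (rows), by distance of their centre from the gene start in kb (x axis). Red ticks are lost regions, grey ticks have a peak in 1 to 7 tumour libraries and blue ticks in all 8. Ebf1 shows 19 red and no blue ticks, while Foxp1 shows 10 red among 20 blue.

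Gene lists were read against all genes, where 9.8% of the in vitro regions counted per gene were lost. Of the 134 in vitro regions at memory and stemness genes 23 (17.2%) were lost, in 6 of 20 genes. Foxp1 held 10 of them and Bach2, a repressor that holds back effector differentiation, 5 of its 25. Bcl2, the survival gene, had 3 of 19 and Lef1, which with TCF1 marks memory precursors, 3 of 10, and Foxo1 and Satb1 had 1 each. At Bach2 the best ranked region (chr4:32501524-32502705) had folds of 5.16 and 5.70 in the pos and 6.87 and 7.2 in the neg libraries. Without in vivo LC3-GFP neg replicate 2 the list stood at 28 of 134 (20.9%, against 14.9% for all genes), and with the 25000 best peaks of each library at 3 of 36 (8.33%, against 4.52%). The other 14 genes of the list, among them Tcf7 and Il7r, had none.

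None of the 25 in vitro regions at effector molecule genes (granzymes, perforin, cytokines, chemokines and others) was lost, and 20 of them were open in all 12 libraries. The list stood at 0 of 25 without in vivo LC3-GFP neg replicate 2 and at 0 of 11 with the 25000 best peaks. Effector fate regulators had 7 lost of 78 (8.97%), with Rora and Runx1 at 2 each and Stat4, Gata3 and Zeb2 at 1 each. With the 25000 best peaks of each library they had 5 of 29 (17.2%, against 4.52% for all genes), above the background. The Rora region had folds of 7.04 and 8.26 in the pos and 8.96 and 9.10 in the neg libraries and was the strongest on that list. Among inhibitory receptors and exhaustion genes 5 of 56 (8.93%) were lost, 2 at the ectoenzyme gene Cd38 and 1 each at Entpd1, which encodes CD39, at Tox and at Btla.

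The signalling lists ran from 5.95% to 12.7%, on both sides of the 9.8% of all genes. T cell receptor signalling lost 13 of 127 regions (10.2%), including single regions at Rasgrp1, an activator of RAS, and the kinase gene Prkcq, and 2 of 8 at the ubiquitin ligase gene Cbl. The PI3K, AKT and mTOR list lost 14 of 129 (10.9%), of which Rptor, the adaptor of mTORC1, had 6 of 18 and the phosphatase gene Inpp4b 4 of 25. Without in vivo LC3-GFP neg replicate 2 this list lost 22 of 130 (16.9%, against 14.9% for all genes), and with the 25000 best peaks 1 of 51 (1.96%, against 4.52%). Chemokine receptors and integrins lost 9 of 71 (12.7%), with Itga4 and Itgam at 2 of 4 each. Cytokine receptors and STATs lost 5 of 84 (5.95%), and the TGF-beta and SMAD list 6 of 74 (8.11%). CD8 T cell identity genes lost 2 of 29 (6.90%), both at Cd28.

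Transcription factor lists linked to activation lost less than the 9.8% of all genes with all peaks used, but not under every setting. The AP-1, BATF and IRF list lost 1 of 40 (2.50%), at Atf1, the NFAT, EGR and NR4A list 4 of 67 (5.97%), with the calcineurin inhibitor gene Rcan1 best ranked, and the NF-kappa B list 4 of 57 (7.02%), 2 of them at Nfkb1. The AP-1 list lost 2 of 40 (5%) and the NFAT list 8 of 67 (11.9%) without in vivo LC3-GFP neg replicate 2, against 14.9% for all genes. With the 25000 best peaks of each library both were above the 4.52% of all genes, at 1 of 20 (5%) and 2 of 33 (6.06%). TNF receptor family costimulators lost 2 of 36 (5.56%). Chromatin enzymes lost 11 of 108 (10.2%), with 3 of 5 at Ezh2, the methyltransferase of PRC2, and 2 of 9 at its partner Jarid2. At Ezh2 the best ranked (chr6:47532453-47533269) had folds of 3.80 and 4.22 in the pos and 4.96 and 4.67 in the neg libraries.

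Metabolic and stress lists fell on both sides of the background. The NRF2, heme and CO response list lost 6 of 39 (15.4%), 2 at the thioredoxin reductase gene Txnrd1 and 1 each at Gclm and Gclc, which encode the glutathione-making ligase, at Bach1, the heme-sensing repressor, and at Nfe2l2, which encodes NRF2. This list stood near all genes under both other settings, at 6 of 39 (15.4%, against 14.9%) without in vivo LC3-GFP neg replicate 2 and at 1 of 23 (4.35%, against 4.52%) with the 25000 best peaks of each library. Autophagy machinery and receptors lost 7 of 69 (10.1%), among them single regions at Atg10, Atg7, Wipi2 and Calcoco1. The integrated stress response lost 4 of 47 (8.51%), 2 of them at the serine synthesis gene Phgdh, and the mitochondrial dynamics list 3 of 36 (8.33%). Glycolysis and HIF1 targets lost 2 of 64 (3.12%), at Pfkfb3 and Slc2a3, MYC and ribosome biogenesis 2 of 37 (5.41%), both at Wdr43, cell cycle and replication 4 of 65 (6.15%), and apoptosis and p53 targets 1 of 43 (2.33%). The mitochondrial list lost 6 of 36 (16.7%), glycolysis 5 of 63 (7.94%) and apoptosis 2 of 43 (4.65%) without in vivo LC3-GFP neg replicate 2, against 14.9% for all genes. With the 25000 best peaks of each library, the inhibitory receptor (22 regions), cytokine receptor (31), TNF receptor (12), cell cycle (40), MYC (28), glycolysis (35), stress response (29), TGF-beta (29) and mitochondrial (20) lists had 0 lost. Neither place nor gene length was held fixed in these counts.

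**Figure D4:**
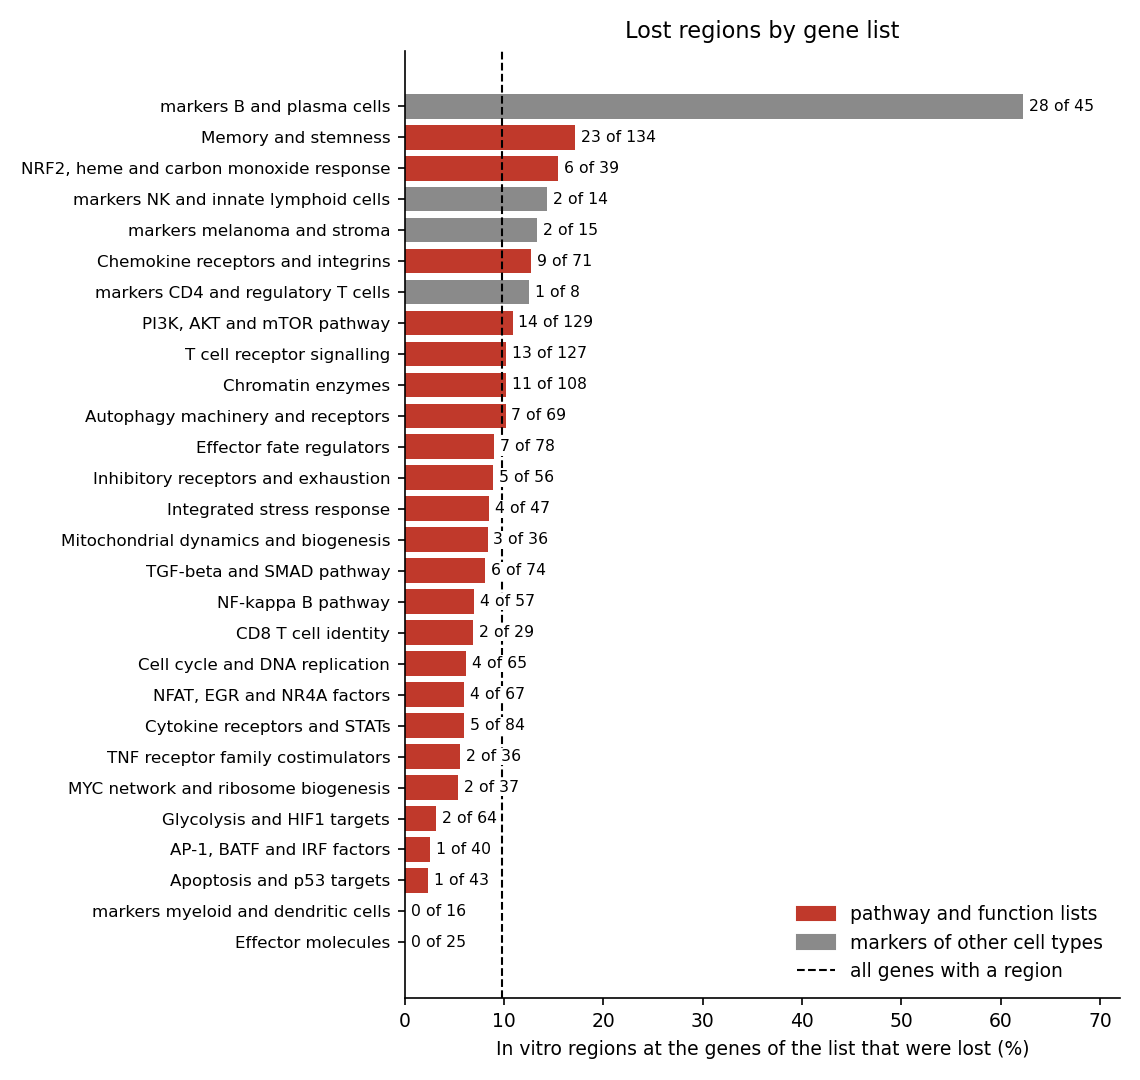
Percent of regions with a peak in all 4 in vitro libraries that were lost (x axis) at the genes of each list (rows), with counts beside the bars. Grey bars are markers of other cell types, and the dashed line is the 9.8% of all genes. B and plasma cell markers stand at 62.2%, memory and stemness at 17.2% and effector molecules at 0.

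The largest share among lists was at markers of B and plasma cells, where 28 of 45 in vitro regions (62.2%) were lost. Ebf1 held 19 of them, the B lineage factor gene Pax5 4 of 7, the B cell kinase gene Blk 3 and the adaptor gene Blnk 1. At the Pax5 start (chr4:44710688-44711623) folds were 2.08 and 2.71 in the pos and 3.56 and 3.05 in the neg libraries, and at Blnk (chr19:40970054-40971137) 4.33 and 5.74 in the pos and 5.66 and 5.51 in the neg libraries. The Pax5 start was a weaker peak than the Blnk region in every in vitro library by fold. Without in vivo LC3-GFP neg replicate 2 the list stood at 29 of 45, and with the 25000 best peaks of each library at 2 of 6. Leaving out this list and the immunoglobulin loci, an alternative chosen after seeing the data, left 4454 lost regions.

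The immunoglobulin light chain loci, chosen after their values were seen, were lost nearly whole with all peaks used. At the kappa locus 11 of 12 in vitro regions were lost and at the lambda locus 7 of 7, with none open in all 12 libraries, whereas at the heavy chain locus 4 of 37 were. The T cell receptor loci lost 1 of 27 at alpha and delta, 1 of 14 at beta and 0 of 3 at gamma. Over the 22 immunoglobulin regions, median ranks were 23.5% and 28.8% in the pos and 69.3% and 74.8% in the neg libraries, so both pos libraries ranked them higher. These counts were the same without in vivo LC3-GFP neg replicate 2, but with the 25000 best peaks of each library few regions were left, and 1 of 2 at kappa, 1 of 1 at lambda and 0 of 5 at the heavy chain locus were lost.

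Values of the whole B marker list stand beside these counts, and their part in the loss was not tested. In RNA, 9 of the 10 markers were listed, Pax5 being the exception, and 6 were tested. The summed level of these 6 was 15.0 and 13.5 CPM in the pos and 4.47 and 6.01 CPM in the neg libraries. Of this, Cd79b alone gave 6.30 and 5.96 CPM in the pos and 3.82 and 5.24 CPM in the neg libraries. Cd79b was not called (edgeR adjusted p = 0.138), while the other 5 were called higher in pos cells, against 11.3% of all tested genes. The CD8 identity list summed to 2727 and 2752 CPM in the pos and 2923 and 3023 CPM in the neg libraries. Cd22 had 0 counts in neg replicate 2 and Ms4a1 in neg replicate 1. Of 10 markers, 2 to 5 had a peak at their start in the tumour libraries, against 9 in both in vitro pos and 8 in both in vitro neg libraries. Markers of myeloid and dendritic cells lost 0 of 16 regions, but 3 of 15 without in vivo LC3-GFP neg replicate 2, the library in which all 10 of them with a placed start had a peak there, against 5 to 7 in the other tumour libraries and 7 to 9 in vitro. Markers of NK and innate lymphoid cells lost 2 of 14, of CD4 and regulatory T cells 1 of 8, at Foxp3, and of melanoma and stroma 2 of 15.

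Before transfer the ranks of the lost regions in pos and neg libraries differed by less than the spread between replicates. With 1 peak counted per region, the mean over libraries of their median rank was 55.0% in the pos and 58.6% in the neg libraries, a difference of -3.57 percentage points with the better rank in pos (two-sided exact permutation test over 2 against 2 libraries, p = 0.667, smallest possible 0.33). The pos values were 50.7% and 59.4% and the neg values 54.2% and 63.0%, so the groups overlapped. These medians followed list length, the best rank being in the longest list (63761 peaks, pos replicate 1) and the worst in the shortest (49634, neg replicate 2). The part of list length was not tested. Ranked by fold, the difference was -0.49 points, and ranked by pileup -3.66 points. Leaving out in vitro pos replicate 1 or neg replicate 2 turned the sign, at 0.78 and 0.83 points.

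RNA of genes with a lost region was compared between LC3-GFP pos and neg cells before transfer, a contrast the choice of regions did not use. Of the 2119 genes, 1744 were listed and 1641 tested, and edgeR's quasi-likelihood test, adjusted by Benjamini-Hochberg over all 12022 tested genes, called 455 (27.7%), against 25% of all tested genes. Of these, 216 (13.2%) were higher in pos cells, against 11.3% of all tested genes, and 239 (14.6%) lower, against 13.6%. The median log2 change was 0.01, against 0.00 over all tested genes. The 2 libraries of each group did not overlap for 1023 of the 1641 (62.3%), against 61.5% of all. These shares are near the background. Scaled by library size alone, 343 of 518 calls among genes with a lost region were higher in pos cells (66.2%), as were 2242 of 3445 among all genes (65.1%). Genes with 3 or more lost regions had 42 calls of 148 tested, 23 higher and 19 lower, and genes with a lost region at a start 9 of 41, 3 higher and 6 lower. Without pos replicate 1 there were 268 calls among genes with a lost region, and without pos replicate 2 278.

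Among called genes with a lost region, only those whose pos and neg libraries did not overlap were considered for naming by size of change. Their largest rises in pos cells were of low-count genes, several of which are known for B and plasma cells. Mzb1, a chaperone gene of plasma cells, had 1.34 and 3.08 CPM in pos and 0.259 and 0 CPM in neg libraries (ratio of summed counts per TMM-scaled library size 16, exact 95% interval 6.00 to 60.4, edgeR adjusted p = 6.24e-04). Pou2af1, the octamer coactivator of B cells, had 4.4 and 3.58 CPM in pos and 0.324 and 0.420 CPM in neg libraries (10.9, 5.88 to 22.3, edgeR adjusted p = 8.14e-06). That both pos libraries lay above both neg libraries in both genes follows from this choice.

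The transcription factor gene Mef2c stood at 2.17 and 1.57 CPM in pos and 0.129 and 0.140 CPM in neg libraries, a ratio of 14.1 (5.23 to 53.1). Bank1, a B cell scaffold gene, stood at 1.11 and 0.753 CPM in pos and 0 and 0.280 CPM in neg libraries, a ratio of 7.03 (2.49 to 27.3). Erg, an ETS factor gene with 3 lost regions, stood at 1.73 and 1.70 CPM in pos and 0.259 and 0.350 CPM in neg libraries, a ratio of 5.66 (2.79 to 13). Mreg and Sox5 also rose, with 32 and 25 summed counts in pos and 3 in neg libraries each, ratios of 9.37 (2.93 to 47.8) and 7.32 (2.23 to 37.9). Such intervals cover counting error only.

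The largest falls, chosen in the same way, were of low-count genes too. Adm, which encodes the peptide adrenomedullin, stood at 0.334 and 0.126 CPM in pos and 1.81 and 1.26 CPM in neg libraries (log2 change -2.67, SE 0.58, edgeR adjusted p = 2.49e-03). Gipr, the receptor gene of an incretin, stood at 0.279 and 0.188 CPM in pos and 1.42 and 1.61 CPM in neg libraries (-2.64, SE 0.56, edgeR adjusted p = 1.91e-03). Ildr1, Pfpl, the metalloproteinase gene Mmp28, the interferon-inducible gene Ifi204, Eml1 and the kinase gene Camk2b fell by 2.26, 2.24, 2.16, 1.84, 1.76 and 1.72 on the log2 scale. Ifi204 has close paralogs, so its count is uncertain.

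**Figure D5:**
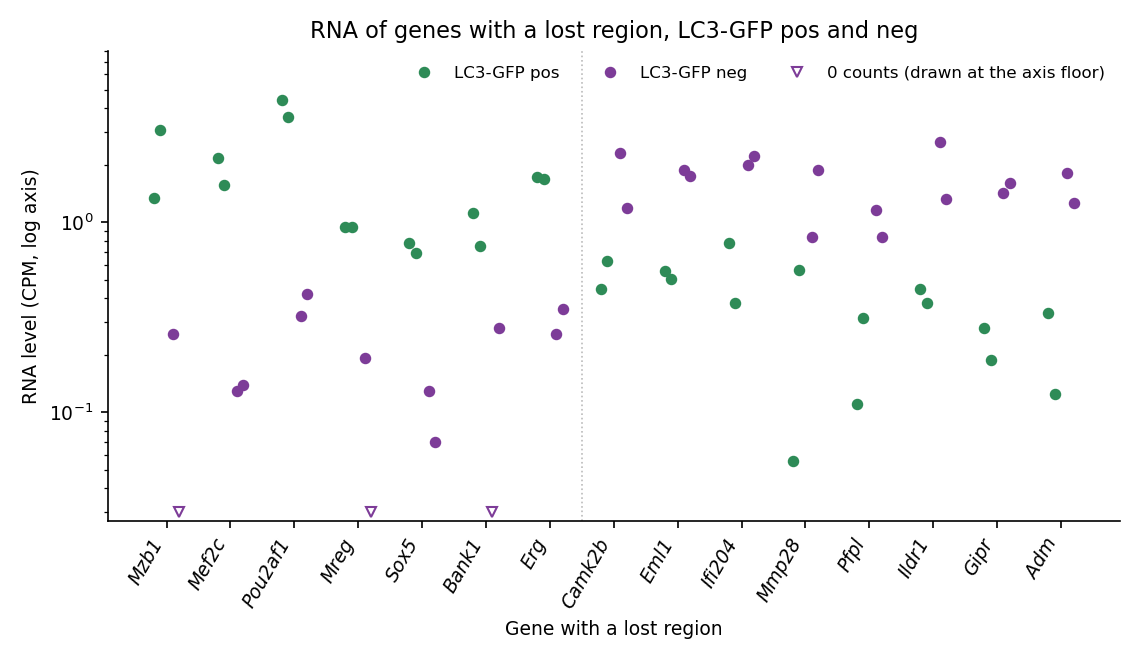
RNA level in CPM (y axis, log scale) of 7 genes with large rises and the 8 with the largest falls in LC3-GFP pos cells among called genes with a lost region (x axis). Each point is 1 library, green for LC3-GFP pos and purple for neg, and open triangles are libraries with 0 counts. Only genes whose pos and neg libraries did not overlap were chosen. All 15 genes lie below 5 CPM.

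Of the 6 memory genes with a lost region, Foxo1 was called and 5 were not, while 10 of all 20 genes of the list were called, 6 higher and 4 lower in pos cells. Foxo1, chosen after its values were seen, stood at 173 and 170 CPM in pos and 197 and 196 CPM in neg libraries (log2 change -0.20, edgeR adjusted p = 4.44e-03). Foxp1 stood at 171 and 164 CPM in pos and 176 and 176 CPM in neg libraries (log2 change -0.07, edgeR adjusted p = 0.310). Bach2 stood at 65.2 and 67.6 CPM in pos and 70.2 and 80.8 CPM in neg libraries (-0.18, edgeR adjusted p = 0.0630). Lef1 (-0.14), Bcl2 (-0.02) and Satb1 (0.03) were not called either. The pos and neg libraries overlapped for Satb1 and did not for the other 5. Over all tested genes, 25% were called and the libraries did not overlap for 61.5%.

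Other genes named from the lists, and Vldlr, named by rank, were called in either direction. Entpd1 fell to 31.3 and 32.3 CPM in pos, against 74.5 and 66.3 CPM in neg libraries (log2 change -1.15, SE 0.08, edgeR adjusted p = 5.78e-09). Tox rose to 12.7 and 11.5 CPM in pos, against 5.57 and 4.48 CPM in neg libraries (1.27, SE 0.17, edgeR adjusted p = 2.96e-05). Tnfsf8, which encodes CD30 ligand, rose by 0.83 and Btla by 0.56 on the log2 scale. Jarid2 (-0.75), Slc2a3, a glucose transporter gene (-0.61), Vldlr (-0.53) and Bach1 (-0.52) fell, while Itga4 (0.56) and Tgfbr3 (0.46) rose. Ezh2 rose to 215 and 221 CPM in pos, against 173 and 174 CPM in neg libraries (0.33, edgeR adjusted p = 4.94e-05).

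The edges of the rule were soft. The worst ranked lost regions were in Mark3 (chr12:111604604-111605397) and Tbc1d22a (chr15:86258017-86258660) and 15.1 kb from Ctla4 (chr1:60893201-60893921), each at a rank of 99.9% in 1 library. Folds there were 2.25 and 3.20 in the pos and 4.31 and 4.39 in the neg libraries at the Ctla4 region. Just outside, 3307 regions had peaks in all 4 in vitro libraries and in 1 tumour library, which was in vivo LC3-GFP neg replicate 2 for 2420 (73.2%). The best ranked of these, in Zc3h7a (chr16:11143917-11144316) and at Cmss1 and Filip1l (chr16:57391303-57391677), were among the strongest 0.00885% of peaks in every in vitro library and had their single tumour peak in neg replicate 1, and the next, in Rbm27, had its in neg replicate 4. Another 3157 regions had a peak in 3 in vitro and in no tumour library, the best ranked lying near Crhr1, Iltifb and Gpr15.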

How the data were processed

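Per the submitters' processing notes, RNA counts were made with Partek, STAR and DESeq2 and ATAC peaks with Partek, cutadapt, BWA and MACS2, both on mm10. Versions, strand handling and any Tn5 shift are not given in the sources used here. The authors deposited estimated counts per gene, some not whole, with no scaling. Per the file headers, each peak carries a pileup signal at its summit, a fold enrichment over local background, a −log10 p and a −log10 q, and belongs to 1 library. Pileup is not scaled to depth, and the headers do not say whether starts count from 0 or 1, so coordinates stand as deposited.

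Peaks overlapping by at least 1 bp were merged over the 12 ATAC libraries and placed by RefSeq genes of GRCm38.p6, protein-coding only; exons and introns were not used. Estimated counts were rounded, filtered with filterByExpr, scaled by TMM and tested with edgeR 4.0.16 (glmQLFit, glmQLFTest) in R 4.3.3 at an adjusted p of 0.05, with DESeq2 1.42.0 as an alternative. RNA libraries held 17557633 and 15605906 counts in pos and 15850672 and 14567545 in neg cells, and 3 counts corresponded to 0.167 to 0.210 CPM. Intervals cover counting error only. Python 3.11.15, pandas 2.3.3 and SciPy 1.17.1 did the rest. Merging and the RNA test were tested on simulated data.

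The regions and the 28 gene lists were chosen with earlier results of these data known. Named were the 10 best ranked lost regions at gene starts and in gene bodies, by the worst of the 4 in vitro ranks. The 10 genes with most lost regions, up to 4 genes per list and 3 regions on each side of the thresholds were also named. From RNA came the 8 genes with the largest change each way, among called genes with a lost region and no overlap between groups. Alternatives were other merging, filters, scaling and windows, and leaving out each library. Some genes that these rules name are not reported here.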

Additional observations from a re-analysis of the deposited data

Results flagged for a closer look

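Peak number, share of regions in no other library, peak length and fold were each tested for a value far from the rest. This was done in the 4 pos and in the 4 neg tumour libraries. Of these 8 tests, 2 found one, and chance gives such a value in about 1 of 20 tests. The tests reuse the same libraries, so they are not independent. In vivo LC3-GFP pos replicate 1 had 27406 peaks, against 36539 to 37477 in the other 3 pos libraries. In vivo LC3-GFP neg replicate 2 had 26.6% of its regions in no other library, against 0.491% to 2.80% in the other 3 neg libraries. Without the pos library 4516 regions were lost, and without the neg library 6950.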

How the results depend on the processing

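The number of lost regions moved most with the 25000 best peaks of each library (1130) and with a peak allowed in 1 tumour library (7811), and ran from 4516 to 6950 on leaving out 1 library, the highest without in vivo LC3-GFP neg replicate 2. The share at gene starts was 4.16% and 4.17% under the first 2 settings, 4.22% with a window of 2 kb and 2.29% with 500 bp, and 2.63% to 4.06% on leaving out 1 library. The pos minus neg rank of lost regions ran from -7.98 to 0.83 points on leaving out 1 in vitro library, with reversed signs of 0.78 without pos replicate 1 and 0.83 without neg replicate 2. RNA calls numbered 1688 with DESeq2, 267 of them in genes with a lost region, and on leaving out 1 RNA library 1722 to 3451, of which 268 to 498 were in such genes. The lowest of these were without pos replicate 1, and without pos replicate 2 the counts were 1806 and 278. Counting only genes with a lost region at a start left 9. With a replicate block, calls were 3568, of which 530 were in genes with a lost region. Same-numbered RNA samples correlated at 0.0489, a single value, since with 2 libraries per group both pairs give the same correlation. It does not by itself decide whether the numbers pair the samples, and the main test did not pair them. Of 53 called genes named, 16 missed the threshold with DESeq2, 4 with library size scaling, 6 without each neg library, 11 without pos replicate 1 and 13 without pos replicate 2, and none of those with a value changed direction; Sox5 had no value without pos replicate 1 and no adjusted p with DESeq2. The causes were not tested. Read depth of the ATAC libraries is unknown, which limits every statement on absent peaks.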
